A study of Mus musculus with 12 samples.

Results

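The genes described here are 5 that carry or receive the progesterone signal in mammary epithelium: Tnfsf11 (RANKL), Tnfrsf11a (RANK), Wnt4, Cited1 and Id4. They were measured by 10 of the 34945 probe sets that the platform annotation assigns to 1 gene symbol, on an Affymetrix mouse genome array of 45101 probe sets. A probe set is a group of short probes against a transcript. The members were all probe sets assigned to 1 of these symbols alone, namely 2 for Tnfsf11, 2 for Tnfrsf11a, 2 for Wnt4, 1 for Cited1 and 3 for Id4, and no probe set with several symbols held a member.

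The RNA came from C4-HD, a transplantable mammary carcinoma that depends on progestin, grown in BALB/c mice carrying medroxyprogesterone acetate (MPA), a synthetic progestin. The MPA group held tumours growing with MPA. For the 4 mifepristone groups the MPA pellet was taken out once a tumour measured 50 mm2, and mifepristone (MFP), an antagonist of the progesterone receptor, was given under the skin at 10 mg/kg/day for 6, 12, 24 or 48 h. Against MPA, the MFP groups thus differ in both the removal of the pellet and MFP, and these cannot be told apart. The no MPA group, called so after its source name, held tumours treated with saline for 48 h. The labels' treatment protocol describes saline-treated tumours as still carrying MPA, so what this group received is not settled by the labels. Each of the 6 groups had 2 arrays, 12 in all, and all tumours were of this 1 carcinoma line. Replicate numbers 1 and 2 are not in the labels and follow the order of the arrays in the series. Age, animals per array and any pooling are not given, and the series calls the arrays independent replicates without tying them to separate mice. The p-values measure the spread between these arrays.

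In the mammary gland, progesterone acts on luminal cells that carry its receptor. These cells secrete RANKL and WNT4, which act on neighbouring cells that lack the receptor: RANKL binds the receptor RANK and drives proliferation through NF-kappaB and cyclin D1, and WNT4 acts on basal and stem cells through Wnt signalling. CITED1 is a nuclear co-regulator without DNA-binding activity of its own that enhances transcription by the oestrogen receptor in hormone-sensing luminal cells. ID4 is a helix-loop-helix protein that binds basic helix-loop-helix factors and keeps them off DNA, and it marks basal cells of the gland.

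Promoters of 3 genes are shown, since the results turn on them: those of the receptor and the co-regulator that moved, and that of the ligand of the receptor. All 5 genes matched RefSeq by symbol and gene ID, and the promoter table of RefSeq on build GRCm38.p6 held 7 start sites for them, of which Cited1 had 3. The stretches are the bases before the outermost annotated start of the gene, on the strand of the gene, 5′ to 3′, in lower case. Capitals mark an E-box (CANNTG, the site of basic helix-loop-helix factors) or a TATA box (TATAAA, or TTTATA where the match is on the opposite strand).
Tnfrsf11a, chr1:105780473-105780672, + strand: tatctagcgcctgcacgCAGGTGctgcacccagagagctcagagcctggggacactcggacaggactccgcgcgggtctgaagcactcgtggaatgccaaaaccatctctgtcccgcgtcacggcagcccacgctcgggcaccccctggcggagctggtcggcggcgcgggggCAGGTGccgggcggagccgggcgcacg
Cited1, chrX:102252182-102252431, - strand: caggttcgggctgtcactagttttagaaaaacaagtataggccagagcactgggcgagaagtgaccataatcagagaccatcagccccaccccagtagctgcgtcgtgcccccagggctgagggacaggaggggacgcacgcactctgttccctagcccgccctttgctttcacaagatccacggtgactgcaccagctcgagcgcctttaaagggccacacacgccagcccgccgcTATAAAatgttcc
Tnfsf11, chr14:78308044-78308293, - strand: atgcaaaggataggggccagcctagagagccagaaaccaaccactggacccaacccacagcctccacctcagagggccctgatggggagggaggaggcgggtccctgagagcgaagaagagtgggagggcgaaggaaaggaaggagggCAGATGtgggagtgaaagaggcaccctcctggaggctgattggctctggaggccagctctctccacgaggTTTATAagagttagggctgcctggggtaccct
The Tnfrsf11a stretch of 200 bases held 2 E-boxes and no TATA box, and was 71.0% G or C. The Cited1 stretch of 250 bases ended in a TATA box 13 bases before the start and was 58.0% G or C. The windows of its other annotated starts, not shown, each held an E-box, and 1 of them also a TATA box. The Tnfsf11 stretch of 250 bases held 1 E-box and 1 TATA box, the latter on the opposite strand 32 bases before the start, and was 60.4% G or C. Over the 32851 promoter windows of 250 bases the median G or C content was 52.4%, an E-box was found in 66.2% and a TATA box in 12.4%, counting both strands. The half-site of steroid receptors (AGAACA, either strand) was searched too, since MFP binds such a receptor: it is in 16.1% of all windows and in 0 of the 7 windows of the 5 genes. These matches describe letters in a window and not bound sites.

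Tnfrsf11a lies on chromosome 1 (GRCm38.p6, 105780673 to 105849444), Wnt4 on chromosome 4 (137277635 to 137299501), Id4 on chromosome 13 (48261116 to 48266028), Tnfsf11 on chromosome 14 (78277446 to 78308043) and Cited1 on chromosome X (102247378 to 102252181). Where along each transcript a probe set lies was not used here.

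Values are log2 ratios, for which the reference of a probe set is its mean over both MPA arrays on the linear scale. A step of 1 is a doubling and 0 is that mean. Levels above background are unknown, and no level of one gene can be set against that of another. Tests are limma's, fitted over all 12 arrays and 34945 probe sets, with Benjamini-Hochberg adjustment and a threshold of 0.05. The MFP groups were each compared with the same 2 MPA arrays, so these comparisons are not independent of each other. Where an array is left out, the 1 array that remains in its group is assumed to vary like the arrays of the other groups.

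Several features of the whole series bear on the values. Markers of other tissues stood high in single groups or arrays: the median of 10 liver genes was 3.53 and 3.98 in MFP 24 h against 0.89 and -2.84 in MPA, the median of 8 exocrine pancreas genes was 6.18 and 4.89 in MFP 6 h, 6.88 in 1 MFP 24 h array, and 5.10 and 5.66 in MFP 48 h, and the median of 10 skeletal muscle genes was 4.72 in 1 MFP 48 h array and 0.16 in the other. Luminal epithelial markers of the labelled tissue stayed within -0.61 and 0.56 of the MPA mean as a median of 10 genes. The RNA was from formalin-fixed, paraffin-embedded tissue. The 3′ minus 5′ difference of Actb control probe sets ran from -0.07 and 0.05 in MPA to 0.47 and 0.59 in MFP 48 h. It was taken on ratios to MPA, so it is small in MPA by construction. The 3′ bias of the MPA RNA itself is not known. The part of these differences in the results was not tested.

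In MFP 48 h against MPA, 3 of the 10 member probe sets passed the threshold, both of Tnfrsf11a higher and that of Cited1 lower, where 10.5% of all probe sets passed, 5.2% higher and 5.35% lower. The median difference of the 10 was -0.02, beside -0.01 over all probe sets. At 24 h 2 of 10 passed (1 higher, 1 lower), where 6.97% of all did, 3.36% higher and 3.61% lower. At 12 h 1 of 10 passed, Cited1, where 3.66% of all did, 2.2% of all being lower. At 6 h limma called 0 of 10, with 1 at an unadjusted p under 0.05, where 1.11% of all were called. Arrays of the MFP group and of MPA did not overlap for 5, 4, 2 and 5 of the 10 at 6, 12, 24 and 48 h. The corresponding shares of all probe sets were 45.5%, 48.0%, 48.7% and 52.4%, so non-overlap alone did not set the members apart.

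Between no MPA and MPA limma called 0 of 10 members and 0 of 34945 probe sets (0.0%), with 0 members and 2370 probe sets at an unadjusted p under 0.05. Against no MPA instead of MPA, MFP 48 h had 2 of 10 members past the threshold, both of Tnfrsf11a, where 10.7% of all passed, 6.07% higher. Over the 8 MFP arrays, the slope per doubling of time passed for 3 of 10, where 10.1% of all passed. Across all 6 groups the F-test passed for the same 3 probe sets, where 14.6% of all passed. Members were not overlapping for 2 of 10 in no MPA against MPA (36.4% of all) and for 5 of 10 in MFP 48 h against no MPA (53.8% of all).

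**Figure D1:**
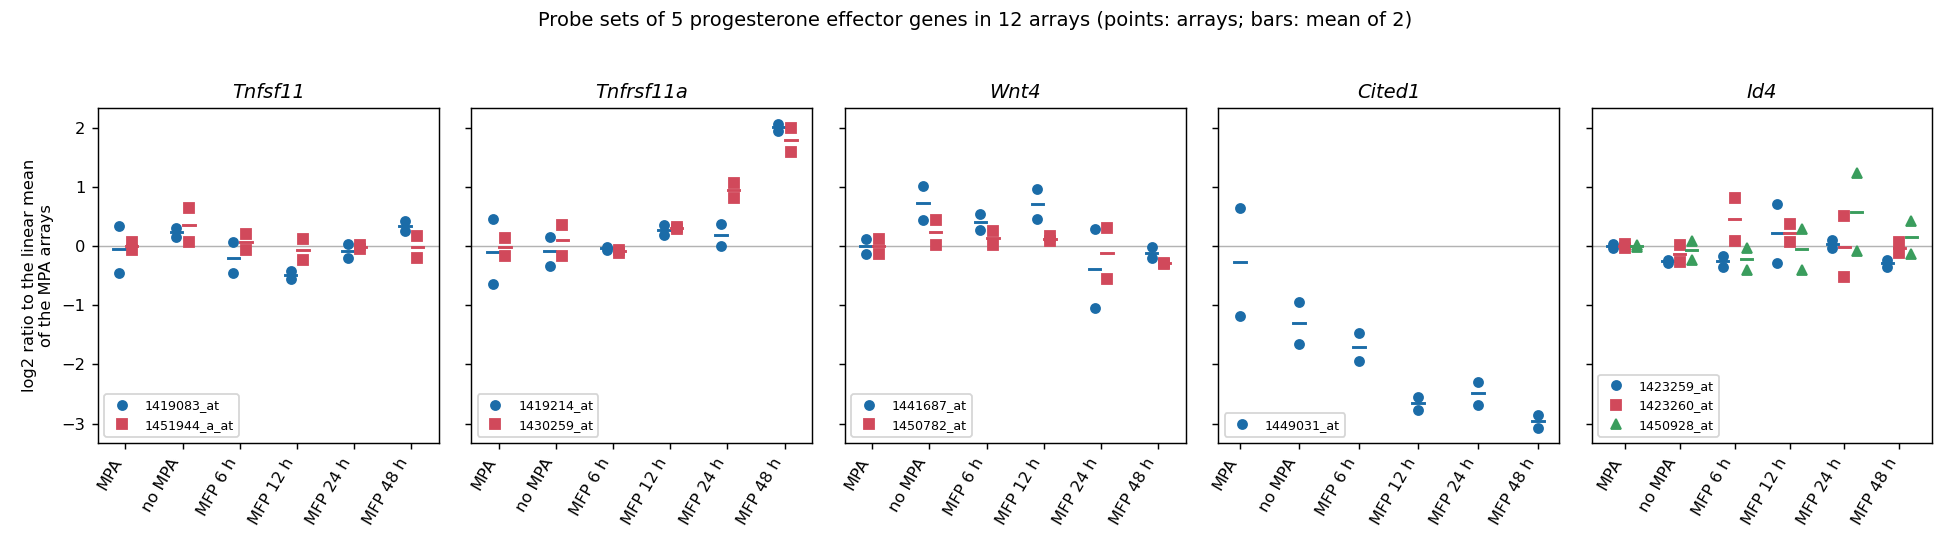
Log2 ratio to the linear MPA mean of the 10 probe sets of Tnfsf11, Tnfrsf11a, Wnt4, Cited1 and Id4, with 1 point per array (2 per group) in the 6 groups along the horizontal axis. Both Tnfrsf11a probe sets reach 1.59 to 2.07 in MFP 48 h, and Cited1 reaches -3.07 and -2.86 there.

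RANKL, the ligand encoded by Tnfsf11, did not pass the threshold in any comparison over all arrays. On probe set 1419083_at the 2 arrays of each group read -0.45 and 0.34 in MPA, 0.16 and 0.31 in no MPA, 0.06 and -0.45 after 6 h, -0.43 and -0.55 after 12 h, -0.20 and 0.03 after 24 h, and 0.42 and 0.26 after 48 h of MFP. The MPA arrays spanned nearly the whole range of this probe set, and the single lowest array was 1 of those at 12 h. MFP 12 h differed from MPA by -0.43 ± 0.27 (SE, n = 2 arrays in each group, 95% interval -1.03 to 0.16, limma adjusted p = 0.456) and MFP 48 h by 0.39 ± 0.27 (-0.2 to 0.99, adjusted p = 0.409). Leaving out 1 MPA array moved the first to between -0.83 and -0.04 and the second to between 0.00 and 0.79, with no call. The slope over the MFP times was 0.20 ± 0.08 per doubling of hours, with an unadjusted limma p of 0.0402 and an adjusted p of 0.178. Without MFP 6 h replicate 1 it was 0.31 and passed (adjusted p = 0.0469), and without both 48 h arrays it was 0.06 (adjusted p = 0.866).

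The other Tnfsf11 probe set, 1451944_a_at, ran from -0.24 to 0.64 over the 12 arrays, with the highest value in 1 no MPA array while the other no MPA array read 0.07. Its difference between no MPA and MPA was 0.36 ± 0.24 (-0.17 to 0.89, limma adjusted p = 0.834). The 2 probe sets followed each other little over the arrays (Pearson r = 0.255, n = 12). Their SDs over the arrays, 0.36 and 0.23, stood at the 61.8th and 25.6th percentile of all probe sets. The interval of 1419083_at after 48 h includes 0 and reaches 0.99, nearly a doubling.

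Wnt4, the Wnt ligand of the progesterone-responsive cells, passed no threshold over all arrays either. On both probe sets the lowest array was 1 of those at 24 h of MFP. On probe set 1441687_at they were -0.13 and 0.12 in MPA, 1.01 and 0.44 in no MPA, 0.54 and 0.27 after 6 h, 0.97 and 0.46 after 12 h, 0.29 and -1.05 after 24 h, and -0.20 and -0.02 after 48 h. All arrays of no MPA, 6 h and 12 h lay above both MPA arrays, and the 24 h arrays disagreed with each other by more than any other pair. MFP 48 h differed from MPA by -0.10 ± 0.38 (-0.95 to 0.75, limma adjusted p = 0.909). The slope over the MFP times was -0.26 ± 0.15 per doubling of hours (adjusted p = 0.313). No MPA differed from MPA by 0.73 ± 0.38 (-0.12 to 1.58, limma adjusted p = 0.782), MFP 12 h from MPA by 0.72 ± 0.38 (-0.13 to 1.57, adjusted p = 0.374), and MFP 48 h from no MPA by -0.83 ± 0.38 (-1.69 to 0.02, adjusted p = 0.212).

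Probe set 1450782_at of Wnt4 had a like order with smaller steps (r = 0.879 between the 2, n = 12): -0.13 and 0.12 in MPA, 0.44 and 0.02 in no MPA, 0.26 and 0.02 after 6 h, 0.17 and 0.08 after 12 h, 0.31 and -0.55 after 24 h, and -0.29 and -0.30 after 48 h. MFP 48 h lay below every MPA and no MPA array on this probe set, and its difference from no MPA was -0.52 ± 0.27 (-1.12 to 0.08, limma adjusted p = 0.275). From MPA it differed by -0.29 ± 0.27 (-0.89 to 0.32, adjusted p = 0.578). The slope over the MFP times was -0.16 ± 0.08 per doubling of hours (adjusted p = 0.279). The step from 12 to 24 h on 1441687_at was -1.10 ± 0.38 (-1.95 to -0.25, adjusted p = 0.217). It rested on the lower 24 h array: without it the step was -0.43 (adjusted p = 0.774), and without the higher one it was -1.77 (adjusted p = 0.0161). Comparisons between successive MFP times were added after the values were seen.

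Tnfrsf11a, the receptor RANK, rose late in MFP on both of its probe sets. On 1430259_at the arrays read -0.16 and 0.14 in MPA, -0.17 and 0.36 in no MPA, -0.07 and -0.11 after 6 h, 0.28 and 0.32 after 12 h, 1.07 and 0.81 after 24 h, and 1.59 and 1.99 after 48 h. The 24 h arrays lay above all earlier ones and the 48 h arrays above those at 24 h. On 1419214_at they read -0.65 and 0.45 in MPA, -0.34 and 0.16 in no MPA, -0.07 and -0.01 after 6 h, 0.18 and 0.36 after 12 h, 0.38 and 0.00 after 24 h, and 1.95 and 2.07 after 48 h. Only the 48 h arrays stood outside the MPA range on this probe set.

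At 48 h the difference from MPA was 1.79 ± 0.23 on 1430259_at (1.28 to 2.3, 3.47-fold, limma adjusted p = 0.00306) and 2.11 ± 0.32 on 1419214_at (1.4 to 2.83, 4.32-fold, adjusted p = 0.00546). Against no MPA it was 1.69 ± 0.23 (adjusted p = 0.00282) and 2.10 ± 0.32 (adjusted p = 0.00442). No MPA and MPA differed by 0.10 (-0.41 to 0.61) and 0.01 (-0.7 to 0.72), both within the spread of the arrays. With the 4 compared arrays alone the adjusted p of the 48 h differences from MPA was 0.0539 and 0.0651, and with quantile normalization it was 0.181 and 0.383. The latter setting acts on ratios to MPA and widens the MPA arrays, so it is a limited check of normalization.

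The 2 probe sets gave unlike values at 24 h. There 1430259_at was higher than MPA by 0.95 ± 0.23 (0.44 to 1.46, 1.93-fold, limma adjusted p = 0.0348), while 1419214_at differed by 0.29 ± 0.32 (adjusted p = 0.664), and whether the 2 probe sets differ at 24 h was not tested. The call at 24 h was lost in 11 of 19 alternatives, with adjusted p from 0.0543 to 0.372, among them the removal of any 1 MPA or MFP array up to 24 h. On the mean of both probe sets the 24 h difference was 0.62 ± 0.25 (adjusted p = 0.167) and the 48 h difference 1.95 ± 0.25 (adjusted p = 0.00373). From 24 to 48 h 1419214_at rose by 1.82 ± 0.32 (adjusted p = 0.0199), 1 of 10 members called in that step where 1.48% of all probe sets were, and 1430259_at differed by 0.84 ± 0.23 (adjusted p = 0.128). The step on 1419214_at lost its call without 1 MFP 24 h array (1.63, adjusted p = 0.118) or without either MFP 48 h array (1.88 and 1.76, adjusted p = 0.0873 and 0.102).

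The slope over the 8 MFP arrays was 0.63 ± 0.07 per doubling of hours on 1430259_at (limma adjusted p = 0.00116) and 0.61 ± 0.14 on 1419214_at (adjusted p = 0.0279). Without the 48 h arrays the slope of 1419214_at was 0.11 (adjusted p = 0.638), so its trend rested on that time, and its call was also lost without any 1 of the MFP 6 h and 48 h arrays or 1 of the 12 h arrays (adjusted p = 0.0524 to 0.115). Earlier steps had no call: limma called 0 of 10 members from 6 to 12 h, with 0 at an unadjusted p under 0.05, where 0.0% of all were called (2543 at an unadjusted p under 0.05), and 0 of 10 from 12 to 24 h, with 2 at an unadjusted p under 0.05, where 1.79% of all were called.

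**Figure D2:**
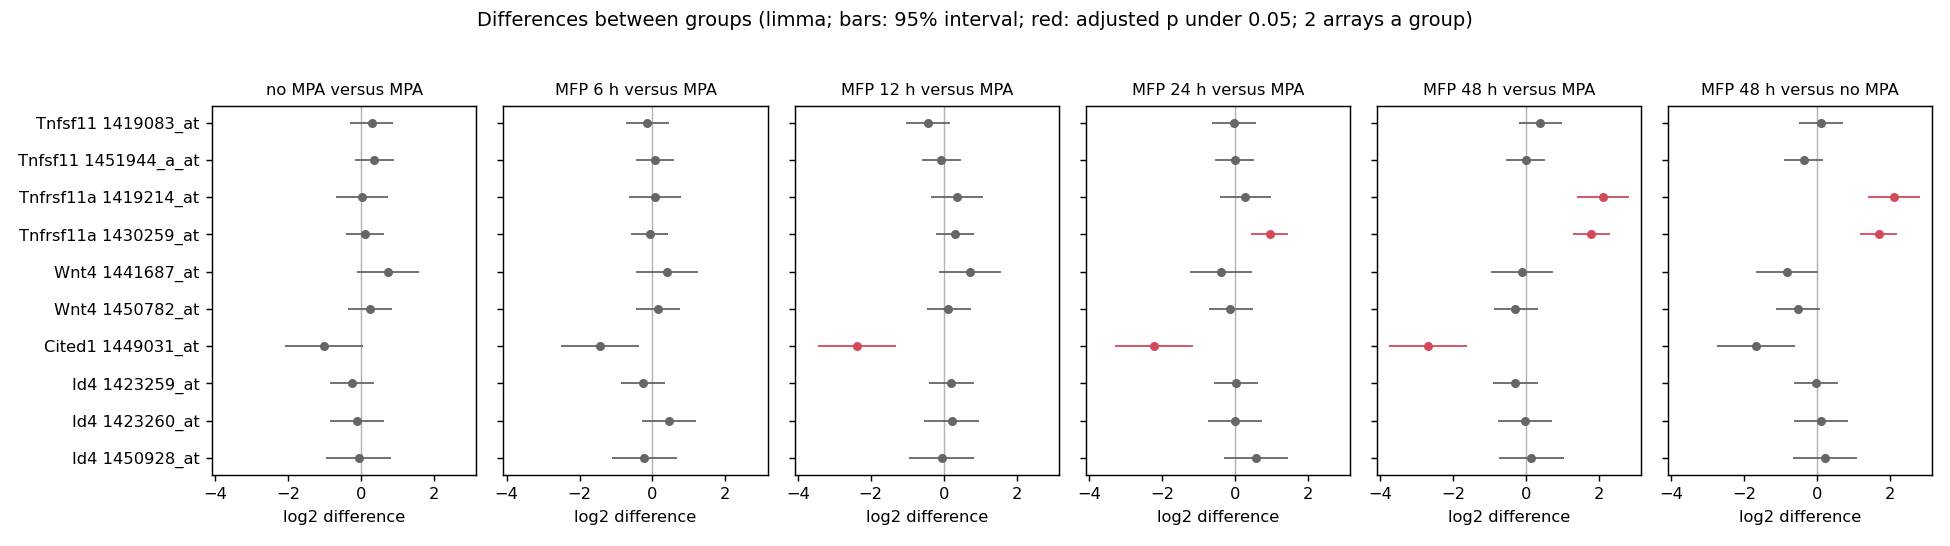
Log2 difference from MPA of each of the 10 probe sets at 6, 12, 24 and 48 h of MFP and in no MPA, and of MFP 48 h from no MPA, with 95% limma intervals over 2 arrays per group. At 48 h the intervals of the Tnfrsf11a probe sets run from 1.28 to 2.3 and from 1.4 to 2.83, and that of Cited1 lies below 0.

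RANK is also made by cells of the monocyte and macrophage lineage, where it drives osteoclast formation. Markers of such cells were higher at 48 h of MFP, and so were fibroblast markers. Of 12 macrophage and dendritic cell markers 7 were higher at 48 h of MFP than in MPA and 0 lower, with a median difference of 1.79 beside 0.00 over all genes, among them Cd68, a lysosomal protein of macrophages (2.73 ± 0.32, limma adjusted p = 0.00285), Msr1, a scavenger receptor (3.86 ± 0.62, adjusted p = 0.0062, 3 of 4 probe sets), and Itgam, an integrin of myeloid cells (2.58 ± 0.29, adjusted p = 0.00275). Counted by 1 probe set per gene, the one with the largest SD, 12.8% of all genes were called in this comparison, 6.57% higher and 6.26% lower. The sum of the linear ratios of the 12 markers was 7.74 and 16.3 in MPA, 9.53 and 9.80 in no MPA, 10.5 and 9.01 after 6 h, 12.5 and 11.2 after 12 h, 19.1 and 27.9 after 24 h, and 47.5 and 46.1 after 48 h. Both 24 h sums lay above all earlier ones, as the 24 h values of Tnfrsf11a did on 1430259_at but not on 1419214_at, and the 48 h sums were the highest.

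Fibroblast markers, 10 genes including the matrix protein gene Postn (2.39 ± 0.24, limma adjusted p = 0.00194), had 8 higher and 0 lower at 48 h (median 1.78). Their summed ratio went from 6.78 and 13.2 in MPA to 27.2 and 32.2 at 48 h. T and NK cell markers had 1 of 10 higher at 48 h, the interleukin-7 receptor gene Il7r (2.60 ± 0.28, adjusted p = 0.0022). Luminal epithelial markers had 1 higher and 2 lower of 10 (median -0.4), basal and myoepithelial markers 2 higher and 0 lower of 10 (median 0.53), endothelial markers 2 higher and 1 lower of 8 (median 0.93), and adipocyte markers 0 of 6. In whole tumours, a change in the number of cells of a type and a change in RNA per cell cannot be told apart. The part of these cell types in the Tnfrsf11a values was not tested.

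**Figure D3:**
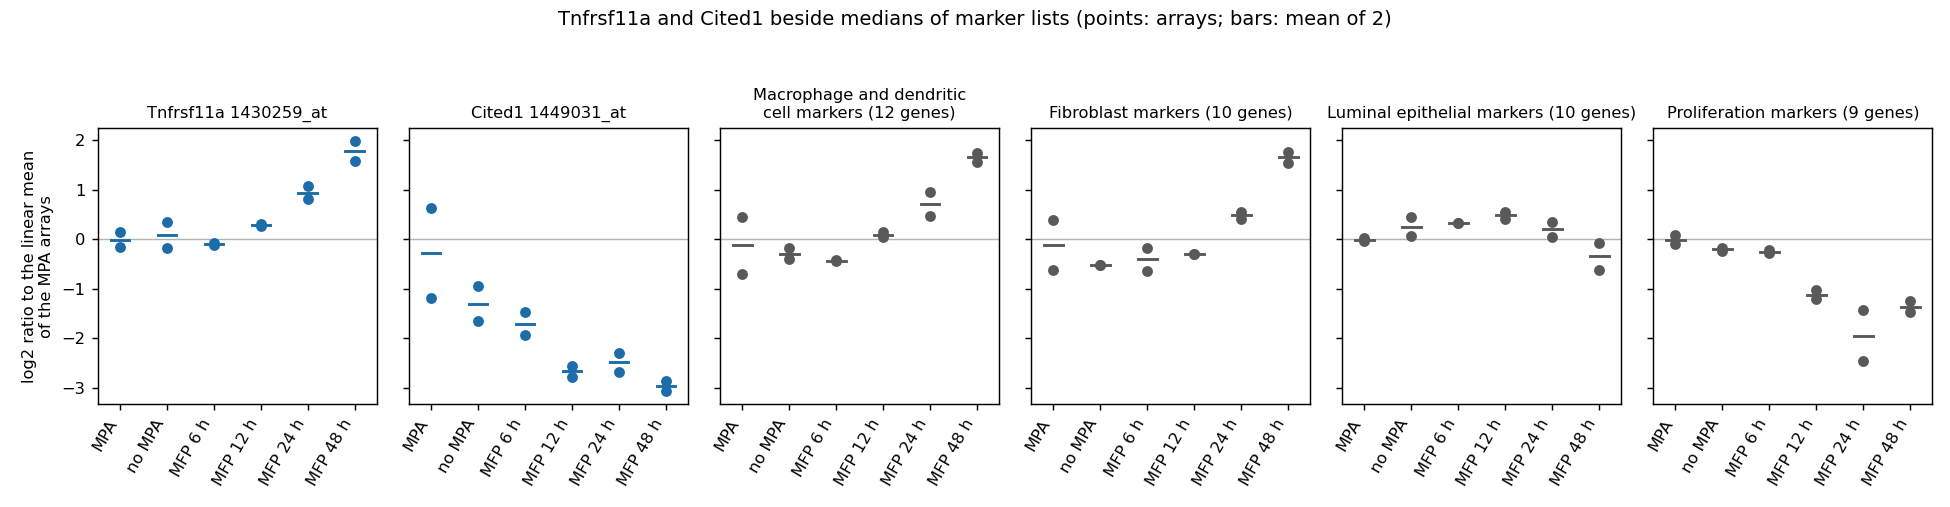
Log2 ratio to the MPA mean, 1 point per array in the 6 groups, of Tnfrsf11a (1430259_at) and Cited1 beside the medians of macrophage and dendritic cell (12 genes), fibroblast (10), luminal (10) and proliferation (9) markers. Macrophage and dendritic cell medians are 1.57 and 1.75 and fibroblast medians 1.54 and 1.77 in MFP 48 h, where Tnfrsf11a reads 1.59 and 1.99.

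Around the receptor, the RANK pathway list held 18 other genes, of which 15 were measured by a probe set with 1 symbol, while Traf3, Chuk and Nfkb1 were not analysed here. At 48 h 2 of the 15 were higher than MPA and 0 lower (median -0.21), where 12.8% of all genes were called, near the share in the list. The 2 were Tnfrsf11b and Id2. Tnfrsf11b encodes osteoprotegerin, the secreted decoy that binds RANKL in place of RANK. It read -0.06 and 0.06 in MPA, -0.16 and -0.28 in no MPA, -0.15 and -0.31 after 6 h, -0.10 and 0.22 after 12 h, 0.30 and 0.52 after 24 h, and 1.91 and 1.53 after 48 h. Its rise at 48 h was 1.72 ± 0.20 (limma adjusted p = 0.00285), on 1 of 2 probe sets, the other differing by 0.82. The ligand Tnfsf11 also had its highest array at 48 h, but its 48 h difference from MPA was not called.

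Ccnd1, the cyclin D1 gene that RANK signalling induces, was lower early in MFP. It read -0.07 and 0.07 in MPA, 0.29 and -0.34 in no MPA, -1.95 and -1.76 after 6 h, -1.50 and -1.45 after 12 h, -1.07 and -1.22 after 24 h, and -0.67 and -0.40 after 48 h. All MFP arrays lay below all MPA and no MPA arrays, and the lowest were the first. It fell by 1.85 ± 0.22 after 6 h (limma adjusted p = 0.0112), was lower by 1.47 after 12 h (adjusted p = 0.00894) and by 1.15 after 24 h (adjusted p = 0.015), and differed from MPA by -0.53 ± 0.22 after 48 h (adjusted p = 0.165). Over the MFP times it rose by 0.43 ± 0.06 per doubling of hours (adjusted p = 0.00272). Of its 3 probe sets 1 was called lower at 24 h. It was the 1 gene of the RANK pathway list called at each of 6, 12 and 24 h, where 1.44%, 4.57% and 8.92% of all genes were called.

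Id2, a helix-loop-helix inhibitor that is a target of RANK in the gland and a relative of Id4, read -0.22 and 0.19 in MPA, -0.27 and 0.40 in no MPA, -0.03 and -0.26 after 6 h, 0.13 and 0.98 after 12 h, 0.66 and 1.12 after 24 h, and 1.59 and 0.98 after 48 h. It was higher at 48 h by 1.30 ± 0.34 (limma adjusted p = 0.0384), on 2 of 3 probe sets. Over the MFP times it rose by 0.46 per doubling of hours, with 2 of 3 probe sets called and the lowest slope at -0.01. Nfkbia, the inhibitor of NF-kappaB, was the 1 gene of the list with a falling slope (-0.43 per doubling). In the time trend 3 genes of the list rose and 1 fell, where 11.7% of all genes were called.

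**Figure D4:**
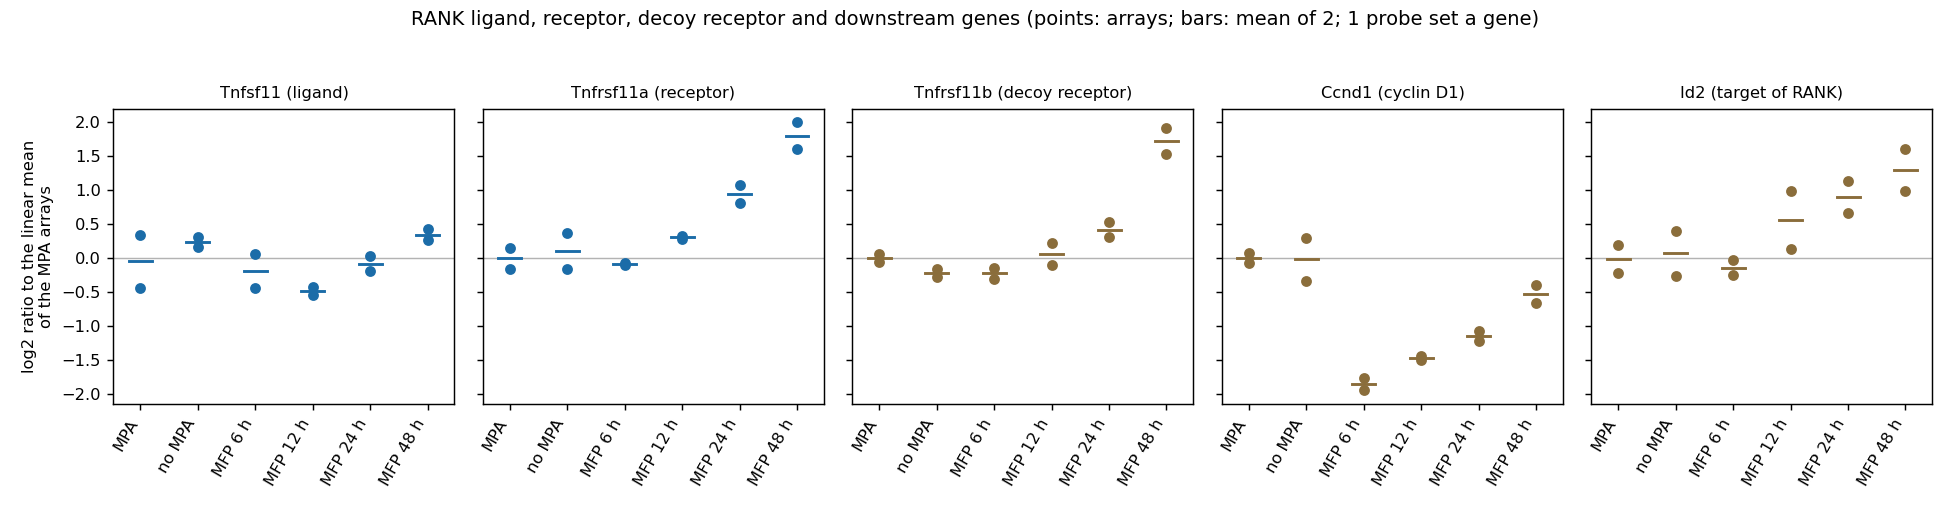
Log2 ratio to the MPA mean, 1 point per array in the 6 groups, of the ligand Tnfsf11 (1419083_at), the receptor Tnfrsf11a (1430259_at), the decoy Tnfrsf11b, Ccnd1 and Id2. Receptor and decoy are highest in both MFP 48 h arrays and Id2 in 1 of them. Ccnd1 is lowest at 6 h (-1.95 and -1.76), and Tnfsf11 stays within -0.55 and 0.42.

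Cited1, the co-regulator of oestrogen receptor activity, was lower than MPA from 12 h of MFP on. Its 1 probe set, 1449031_at, read -1.19 and 0.64 in MPA, -1.65 and -0.94 in no MPA, -1.94 and -1.47 after 6 h, -2.55 and -2.77 after 12 h, -2.29 and -2.68 after 24 h, and -3.07 and -2.86 after 48 h. The 2 MPA arrays lay far apart, no MPA overlapped them, and all MFP arrays lay below both. It had the largest SD of the members, 1.06, at the 97.9th percentile of all probe sets.

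Its difference from MPA was -1.43 ± 0.48 after 6 h (-2.5 to -0.36, limma adjusted p = 0.198), -2.39 ± 0.48 after 12 h (-3.46 to -1.31, 5.22-fold lower, adjusted p = 0.0254), -2.21 ± 0.48 after 24 h (-3.28 to -1.14, adjusted p = 0.0236) and -2.69 ± 0.48 after 48 h (-3.76 to -1.62, 6.47-fold lower, adjusted p = 0.00966). The size depended on both MPA arrays. Without MPA replicate 1 the differences were -3.3, -3.13 and -3.61 after 12, 24 and 48 h. Without MPA replicate 2 they were -1.47 after 12 h (adjusted p = 0.0652), -1.30 after 24 h (adjusted p = 0.0584) and -1.78 after 48 h. Without MPA replicate 1 the 6 h difference was -2.35 (adjusted p = 0.0369). The 12 h call was also lost without either 12 h array and the 24 h call without MFP 24 h replicate 2 (adjusted p = 0.112, 0.149 and 0.125). With the 4 compared arrays alone the adjusted p at 48 h was 0.0847.

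No MPA differed from MPA by -1.02 ± 0.48 (-2.09 to 0.05, limma adjusted p = 0.755). MFP 48 h differed from no MPA by -1.67 ± 0.48 (-2.75 to -0.6, adjusted p = 0.0525), and the lowest no MPA array stood 1.22 above the highest MFP 48 h array. This difference missed the threshold in the fit over all arrays. It passed in 5 of 19 alternatives, and its adjusted p under quantile normalization was 0.601. Neither MPA array enters the difference itself. Leaving out either of them kept the difference at -1.67 and lowered its SE from 0.48 to 0.28. Over the MFP times Cited1 fell by 0.36 per doubling of hours (SE 0.10, adjusted p = 0.0421). That call held in 7 of 17 alternatives, and it was lost, for instance, without either MFP 48 h array (adjusted p = 0.131 and 0.089) or either MFP 6 h array (0.11 and 0.16). The steps from 6 to 12 h, 12 to 24 h and 24 to 48 h were -0.96, 0.17 and -0.48, and none was called.

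Proliferation markers fell at the same times as Cited1 was low. Of 9 genes, 4 were lower at 12 h (2.79% of all genes were), 9 after 24 h (4.35%) and 4 after 48 h (6.26%). Among the last were Aurkb, a mitotic kinase (-2.68 ± 0.20, limma adjusted p = 0.000514, 1 of 2 probe sets, the other at -0.83), and Mki67, the gene of the Ki-67 antigen (-1.75 ± 0.39, adjusted p = 0.0205). Their median per array was -1.21 and -1.02 after 12 h, -2.46 and -1.43 after 24 h, and -1.25 and -1.47 after 48 h. At 6 h, where Cited1 already read -1.94 and -1.47, the median was -0.28 and -0.21. The summed ratio of the 10 luminal markers, the compartment in which Cited1 is normally made, was 9.82 and 10.2 in MPA, 16.8 and 16.6 after 12 h of MFP, and 8.35 and 10.9 after 48 h. The part of either marker list in the Cited1 values was not tested.

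Among 17 relatives and partners of the CITED and ID proteins, 3 were higher and 2 lower at 48 h than MPA (median 0.16). Of all genes 6.57% were higher and 6.26% lower in that comparison. Cited2, a relative of Cited1 that binds the same co-activators, read -0.13 and 0.12 in MPA, 0.28 and 0.23 in no MPA, 0.33 and -0.07 after 6 h, 0.41 and -0.03 after 12 h, 0.45 and 0.85 after 24 h, and 1.26 and 1.08 after 48 h. It was higher at 48 h by 1.18 ± 0.23 (limma adjusted p = 0.0126), on 1 of 2 probe sets. Of the E proteins that pair with ID factors, Tcf4 rose (1.87 ± 0.35, adjusted p = 0.0115, 4 of 6 probe sets) and Tcf3 fell (-1.30 ± 0.29, adjusted p = 0.0198, 1 of 3 probe sets, the highest at -0.11). Tfap2a, a transcription factor whose co-activators include CITED proteins, fell (-1.71 ± 0.28, adjusted p = 0.00696, 2 of 3 probe sets).

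Id4 passed no threshold on any of its 3 probe sets, and these did not follow one another. Probe set 1423259_at ran from -0.35 to 0.71, with the highest value in 1 MFP 12 h array and -0.28 in the other. Probe set 1423260_at ran from -0.53 to 0.82, with the highest value in 1 MFP 6 h array and 0.08 in the other. Probe set 1450928_at ran from -0.41 to 1.24, with the highest value in 1 MFP 24 h array and -0.09 in the other. In each case a single array of a pair stood high. The 24 h difference from MPA on 1450928_at was 0.58 ± 0.40 (-0.31 to 1.46, limma adjusted p = 0.45). The correlation of 1450928_at with the other probe sets over the 12 arrays was -0.187 and 0.379. Their SDs, 0.29, 0.35 and 0.45, stood at the 46.3rd, 61.2nd and 76.4th percentile.

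The hormone receptors upstream of these genes moved differently from each other. In the list of hormone-sensing cells and other hormone effectors 15 genes were analysed here. At 48 h 0 were higher than MPA and 3 lower (median 0.13), where 12.8% of all genes were called, 6.57% higher and 6.26% lower. The 3 were Esr1, the oestrogen receptor (-1.72 ± 0.23, limma adjusted p = 0.00337, 3 of 3 probe sets), Foxa1, a pioneer factor for it (-1.80 ± 0.33, adjusted p = 0.0107), and Gata3, a luminal transcription factor (-2.18 ± 0.46, adjusted p = 0.0164). Esr1 read 0.24 and -0.29 in MPA, -0.85 and -0.59 in no MPA, -0.05 and 0.19 after 6 h, -0.29 and -0.31 after 12 h, -1.35 and -1.76 after 24 h, and -1.71 and -1.78 after 48 h. Among the MFP arrays its low values began at 24 h, when Cited1 had already been called lower at 12 h. Other genes of the list rose: at 24 h 2 were higher than MPA and 2 lower, where 8.92% of all genes were called. The higher ones were Prom1 (2.18, and 1.51 at 48 h without a call) and Egfr (1.81, 3 of 7 probe sets, the lowest at -0.13). In the time trend 2 rose and 3 fell, where 11.7% of all genes were called. Cxcl12 was among those that rose (0.97 per doubling of hours, 1 of 3 probe sets).

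Pgr, the progesterone receptor, read -0.17 and 0.15 in MPA, 1.90 and 2.50 in no MPA, 1.0 and 0.53 after 6 h, 1.46 and 1.40 after 12 h, 1.16 and 0.80 after 24 h, and -0.15 and 0.40 after 48 h. It was higher than MPA at 12 h (1.44 ± 0.28, limma adjusted p = 0.0215), differed by 0.13 ± 0.28 after 48 h (adjusted p = 0.825), and was lower at 48 h than in no MPA by 2.08 ± 0.28 (adjusted p = 0.0027, 2 of 3 probe sets). Of its 3 probe sets, 1 other was called higher than MPA at 48 h, and the 3 differed from MPA by 0.08 to 0.77. The difference between no MPA and MPA, 2.21 ± 0.28, missed the threshold (limma adjusted p = 0.114).

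Among genes of the Wnt pathway beside Wnt4, 21 ligands and secreted modulators had 5 higher and 1 lower at 48 h than MPA (median 0.26). Of all genes 6.57% were higher and 6.26% lower there. Sfrp2 (2.91 ± 0.61, limma adjusted p = 0.0164) and Sfrp1 (2.81 ± 0.41, adjusted p = 0.00443, 4 of 5 probe sets) encode secreted Wnt inhibitors. Wls, which carries Wnt proteins out of the cell, rose by 1.84 ± 0.32 (adjusted p = 0.00913, 3 of 4 probe sets). The ligand Wnt5a fell by 1.63 on the log2 scale (adjusted p = 0.0376, 2 of 4 probe sets). Sfrp1 was high at 48 h alone, with 2.78 and 2.72 there and no array above 0.89 elsewhere.

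Of 24 measured Wnt receptors and targets, out of 25 listed with Tcf7 not analysed here, 3 were higher and 2 lower at 48 h (median 0.28). The shares of all genes were 6.57% higher and 6.26% lower. Lgr6, an R-spondin receptor, read 2.26 and 2.91 after 48 h and at most 0.32 elsewhere (2.63 ± 0.32, limma adjusted p = 0.00285). The receptor Fzd1 rose by 1.29 ± 0.21 (adjusted p = 0.00722) and the inhibitor Nkd2 by 1.18 ± 0.28 (adjusted p = 0.0251, 1 of 4 probe sets, the lowest at 0.12), while Znrf3, a ligase that removes Wnt receptors, fell (-1.07 ± 0.25, adjusted p = 0.0261, 1 of 2 probe sets, the other at -0.41). At 24 h the receptor Fzd7 was lower than MPA (-1.21 ± 0.28, adjusted p = 0.028, 1 of 2 probe sets, the other at -0.21). Axin2, the usual readout of canonical Wnt signalling, read 0.64 and -0.06 after 48 h and -0.18 and 0.16 in MPA, a difference of 0.30 ± 0.26 (adjusted p = 0.533). Its other probe set differed by -0.33, and neither was called.

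For each member, the 4 genes whose values ran most alike over the 12 arrays were found by Pearson r with its probe set of largest SD, as a description. All values share the MPA reference and the same arrays. For Tnfrsf11a these were Bmper (0.965), Bscl2 (0.965), Sulf1 (0.964) and Ap2m1 (0.959), closer than its own other probe set (0.895). For Cited1 they were Eif3h (0.948), Lmnb1 (0.947), Dnmt1 (0.936) and AW209491 (0.932). For Tnfsf11 they were Slc6a6 (0.913), Rab14 (0.907), 1700003F12Rik (0.901) and Fyb (0.899), for Wnt4 Ift22 (0.918), Dpf2 (0.902), Zfp853 (0.899) and Slc7a4 (0.892), and for Id4 Trim10 (0.9), Unc80 (0.896), Nwd2 (0.895) and Shisa9 (0.894).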

How the data were processed

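Total RNA (200 ng) from formalin-fixed tumours was hybridised to 12 arrays, and per the submitters' processing notes the authors used GCRMA, of which no version is given in the sources used here. Values were deposited as log2. In 45099 of 45101 probe sets both MPA arrays together have a linear mean of 1 (tolerance 1e-04), so a value is a ratio to MPA and signal over background is unknown. Of the probe sets 34945 have 1 gene symbol, 932 several and 9160 none here, besides 64 controls. Those with 1 symbol were fitted without a filter in limma 3.58.1 (R 4.3.3): 6 group means over 12 arrays with moderated variances (6 residual and 4.31 prior degrees of freedom), and a slope on log2 hours over the 8 MFP arrays. Replicate arrays differed with an SD of 0.39 to 0.56, and no pair was identical. The number of arrays limits the precision. In lists, a gene stands by its probe set with the largest SD, a choice that favours larger changes. From each list up to 4 genes called at 48 h with the largest difference, up to 2 called at 24 h or in the trend, and 7 fixed genes were to be named; members, cell markers and genes with a role in the text (Nfkbia, Cd68, Il7r, Postn, Mki67 among them) follow or extend this rule. The members and lists were chosen with earlier results of these data known. The fit was tested on simulated data. Alternatives covered the arrays fitted, normalization, weights, probe sets, the trend and leaving out each array.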

Additional observations from a re-analysis of the deposited data

Results flagged for a closer look

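Along the MFP time course, the groups differed among themselves in 3 member probe sets by the test of the slope per doubling of hours over the 8 MFP arrays. Tnfrsf11a rose by 0.61 on 1419214_at (SE 0.14, limma adjusted p = 0.0279) and by 0.63 on 1430259_at (SE 0.07, adjusted p = 0.00116), and Cited1 had a slope of -0.36 (SE 0.10, adjusted p = 0.0421). Between successive MFP times, 48 h differed from 24 h by 1.82 on Tnfrsf11a 1419214_at (SE 0.32, adjusted p = 0.0199).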

How the results depend on the processing

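Of the results that count member probe sets or genes past the threshold, 195 values under an alternative stayed within 1.5 times the main count and 34 did not. With quantile normalization the count was 0 at 12, 24 and 48 h against MPA, at 48 h against no MPA, from 24 to 48 h and over any of the 6 groups. That setting forces 1 distribution on arrays whose SD over probe sets is 0.25 and 0.27 in MPA and up to 0.74 in MFP. Values are ratios to the mean of the MPA arrays, which by itself narrows the spread of those arrays. Quantile normalization of such ratios widens the MPA arrays. Calls lost under it therefore do not tell how far the results depend on normalization. Calls over all probe sets at 48 h against MPA went from 3686 to 2 under it. From 24 to 48 h they went from 517 to 0, so the member count there could only be 0. With only the 4 arrays compared the count was 0 at 12, 24 and 48 h against MPA. Of all probe sets 0, 171 and 163 were called at these times, so at 12 h the member count could only be 0. The 24 h count was 1 with array weights, and 1 gene with the mean or the largest-SD probe set of a gene instead of 2. The trend count was 1 without the 48 h arrays. Leaving out 1 array gave counts of 0 to 1 at 6 and 12 h, 0 to 2 after 24 h, 2 to 3 after 48 h against no MPA, 0 to 1 from 12 to 24 h and from 24 to 48 h, 1 to 3 for the trend and 1 to 4 over the 6 groups, and 3 throughout at 48 h against MPA.

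Signs turned for small differences. Under quantile normalization Tnfrsf11a 1419214_at read -0.06 after 6 h and -0.14 in no MPA against MPA. Leaving out 1 array, the same probe set ran from -0.48 to 0.61 after 6 h, -0.18 to 0.92 after 12 h, -0.26 to 0.84 after 24 h and -0.54 to 0.56 in no MPA against MPA, and from -0.27 to 0.11 from 12 to 24 h. Tnfrsf11a 1430259_at ran from -0.23 to 0.07 after 6 h and -0.16 to 0.37 in no MPA, Cited1 from -0.02 to 0.37 from 12 to 24 h, and Id4 1450928_at from -0.09 to 1.24 after 24 h. The cause was not tested. The 48 h differences of Tnfrsf11a and Cited1 kept their sign in all 19 alternatives. No paired analysis was possible because the labels give no replicate numbers. Signal over background is unknown.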
